A study of Ovis aries with 95 samples.

Results

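CD1B and CD1D were followed in the developing sheep brain as the genes of the array that encode lipid antigen presenting molecules of the CD1 family. They were chosen by name: a probe was a member when its gene name, or the gene given by its accession or description in the array files, was CD1B or CD1D. This gave 2 genes of the 14347 gene names on the array and 5 of its 15008 different probes. CD1D had 2 probes and CD1B had 3, and 2 of the 3 CD1B probes carry the gene name LOC443441 with a CD1B description.

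CD1 molecules resemble the major histocompatibility complex class I molecules. A CD1 heavy chain pairs with beta-2 microglobulin, the light chain encoded by B2M, and its groove holds a lipid instead of a peptide. CD1D presents lipids to natural killer T cells and is found on many antigen presenting and epithelial cells, while CD1B belongs to the group of CD1 proteins that presents lipids to other T cells and is best known from dendritic cells and thymocytes. Saposins and other lipid transfer proteins of the lysosome load the lipids.

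Total RNA from untreated sheep (Ovis aries) was labeled with Cy3 and hybridized to 95 one-colour arrays. The 4 regions were cortex, brainstem, hippocampus and hypothalamus, taken from fetuses at 80, 100, 120, 130 and 145 days of gestation (d) and from newborn lambs 1 d after birth. Each of the 24 groups of region and age had 4 arrays, except the hippocampus at 100 d with 3. According to the study's methods the cortex was a section of frontal cortex, each age group included a set of twins and no ewe showed signs of labor, but the labels do not mark the twins. The labels tie no array to an animal, so the p-values measure the spread between these samples only.

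The array carries a pair of probes for neighbouring CD1 genes that are nearly the same sequence, and this bears on what a CD1B value stands for. These are probe A_70_P030071 of CD1B and probe A_70_P030416 of LOC443442, another CD1 gene. Once aligned, with 1 base removed from the LOC443442 probe, they share 58 of 60 bases, and their longest unbroken common run is 43 bases. The stretches where they part are shown here 5′ to 3′, bases 30 to 59 of the first probe and 28 to 57 of the other, with capitals for the run of A that is 1 base long in one and 2 bases long in the other:
A_70_P030071 (CD1B): tgatttgtgagaaagAtataccttggaata
A_70_P030416 (LOC443442): tgatttgtgagaaagAAtataccttggaat

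The other member probes are unlike these and unlike each other, and the last 30 of their 60 bases are shown to let each signal be traced to its own sequence. Probe A_70_P030073 of CD1B shared no run longer than 9 bases with either of the near-identical probes. The 2 CD1D probes had no common run longer than 5 bases.
A_70_P002726 (CD1D): acaagcagataaaggttgcagtgtaaaaaa
A_70_P002727 (CD1D): gaacattttagctaagaggatttaagttta
A_70_P030073 (CD1B): atccaggaacctgaaacttaagttgtcagc
A_70_P017196 (CD1B): aagttctttgcaagactcggctctaagtgg

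In the RefSeq gene table of the ARS-UI_Ramb_v3.0 assembly the CD1 genes lie on the same chromosome, with 7 genes between CD1D and LOC443442, 3 between LOC443442 and LOC443441 (CD1B), and 0 between LOC443441 and a gene named CD1. The coordinates of that assembly were not used here.

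How well each gene could be measured differed. The scanner software marks a spot that is well above background, and over all probes the median share of arrays with this mark was 98.9%, with 42.8% of probes marked on every array and 2.79% on none. Probe A_70_P002727 of CD1D was well above background on 95 of 95 arrays. Probe A_70_P002726 of CD1D was so on 89 of 95 (93.7%), on every cortex and brainstem array, on 20 of 23 hippocampus arrays and on 21 of 24 hypothalamus arrays.

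By probes A_70_P030071 and A_70_P030073, CD1B was mostly a signal of the cortex. Probe A_70_P030071 was well above background on 22 of 24 cortex arrays, against 3 of 24 in brainstem, 3 of 23 in hippocampus and 7 of 24 in hypothalamus (36.8% of all arrays). Probe A_70_P030073 was so on 18 of 24 cortex arrays, 1 of 24 brainstem arrays and 0 arrays of the other two regions (20% of all arrays). Probe A_70_P017196 was well above background on 0 of 95 arrays, with levels from 5.95 to 6.5 on the log2 scale of normalized intensity. It did not pass the filter on dim probes and did not enter the main tests. This is the only probe with the gene name CD1B itself, and it did not show the cortex signal of the other probes. The reason was not tested, and the CD1B values below are those of the probes named LOC443441. The share of all gene spots that were well above background overlapped between the regions, at 73.9 to 83.9% per array in cortex, 72.0 to 88.5% in brainstem, 59.5 to 85.1% in hippocampus and 75.3 to 86.8% in hypothalamus.

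Some arrays had a dim first row of spots, and the CD1D probe A_70_P002726 lies in that row. On 10 arrays, 3 of hippocampus and 7 of hypothalamus, the 31 other bright probes of the row had a median between -3.03 and -2.32 log2 from the median of their region, whereas on every other array this median was between -0.475 and 0.838. On the same 10 arrays probe A_70_P002726 deviated by -2.70 to -1.69, and probe A_70_P002727, which lies elsewhere, by -0.648 to 0.729. None of them was a cortex, brainstem or newborn array. At 80 d they were replicates 3 and 4 of hippocampus and replicates 1 and 4 of hypothalamus. Differences from 80 d over both probes thus rest partly on dim spots at 80 d. Without the 10 arrays, 80 d is left with replicates 1 and 2 in hippocampus and replicates 2 and 3 in hypothalamus. CD1D values of hippocampus and hypothalamus are therefore given with both probes, with A_70_P002727 alone, and without the 10 arrays.

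**Figure D1:**
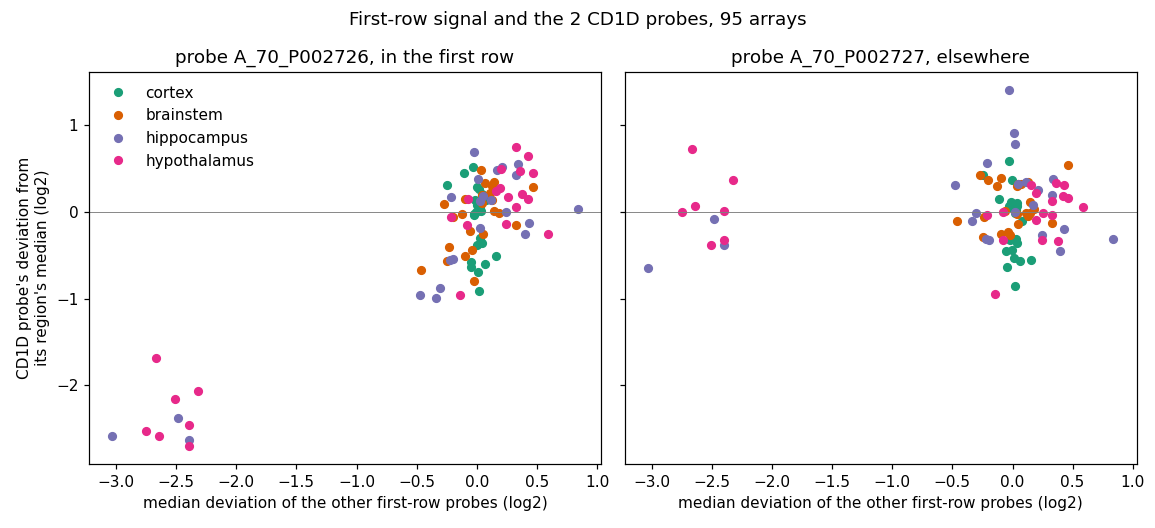
Deviation of CD1D probe A_70_P002726 from its region median (vertical axis, log2) against the median deviation of the 31 other bright probes in the same first row (horizontal axis, log2), one point per array. The 10 arrays with a dim first row, 3 of hippocampus and 7 of hypothalamus, lie apart at the lower left.

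In cortex, CD1D rose through gestation and stayed at its late fetal level 1 d after birth. Probe A_70_P002727 read 7.96, 7.95, 7.88 and 7.66 on the 4 arrays at 80 d, 8.89, 8.61, 8.58 and 8.60 at 145 d, and 8.59, 8.67, 8.95 and 9.1 in newborns (log2 level). The other probe, A_70_P002726, read 8.57, 8.48, 8.50 and 8.17 at 80 d, 9.37, 9.29, 9.06 and 9.35 at 145 d, and 9.09, 9.53, 9.39 and 9.61 in newborns. With either probe every array at 145 d and every newborn array lay above all those at 80 d.

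Averaged over its probes, the log2 level of CD1D in cortex was 8.15 ± 0.16 (SD, n = 4) at 80 d, 8.34 ± 0.14 at 100 d, 8.73 ± 0.23 at 120 d, 8.81 ± 0.13 at 130 d, 8.97 ± 0.13 at 145 d and 9.12 ± 0.21 at 1 d after birth. An F test that compared 80 d with the 5 later ages passed (limma, adjusted p = 3.51e-06), as it did for 46.3% of all genes tested in cortex. The level at 145 d exceeded that at 80 d by 0.82 on the log2 scale (SE 0.12, adjusted p = 9.17e-06), and the newborn level exceeded it by 0.97 (SE 0.12, adjusted p = 9.44e-07). Of all genes, 19.3% and 20.3% rose in these comparisons.

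No single step between neighbouring ages passed the test in cortex, although the unadjusted p was under 0.05 at 1 of the 4 steps, from 100 to 120 d, and the call at that step changed with the processing. CD1D differed by 0.20 from 80 to 100 d (adjusted p = 0.40), by 0.39 from 100 to 120 d (adjusted p = 0.0575), by 0.08 from 120 to 130 d (adjusted p = 0.832) and by 0.16 from 130 to 145 d (adjusted p = 0.731), and the share of all genes that passed at these steps was 5.98%, 6.57%, 1.25% and 0.173%. Without replicate 1 at 120 d, an array with a low CD1D level, the step from 100 to 120 d was 0.50 and passed (adjusted p = 0.0166). It also passed with the deposited series table (0.37, adjusted p = 0.048), with A_70_P002726 alone (0.48, adjusted p = 0.0261) and with the slide as a random block (0.39, adjusted p = 0.0343). The change at birth, newborn minus 145 d, was 0.15 (SE 0.12, adjusted p = 0.895), in a comparison where 0.165% of all genes rose.

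Each slide held arrays of 1 region. In cortex and brainstem each slide held all 6 ages, whereas the hippocampus slides held 3 to 5 of them. In hypothalamus each slide held all 6 ages, apart from 1 slide with 1 array. Within each of the 3 cortex slides CD1D was higher at 145 d than at 80 d, by 0.76 to 0.98, and higher in newborns than at 80 d, by 0.60 to 1.35.

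**Figure D2:**
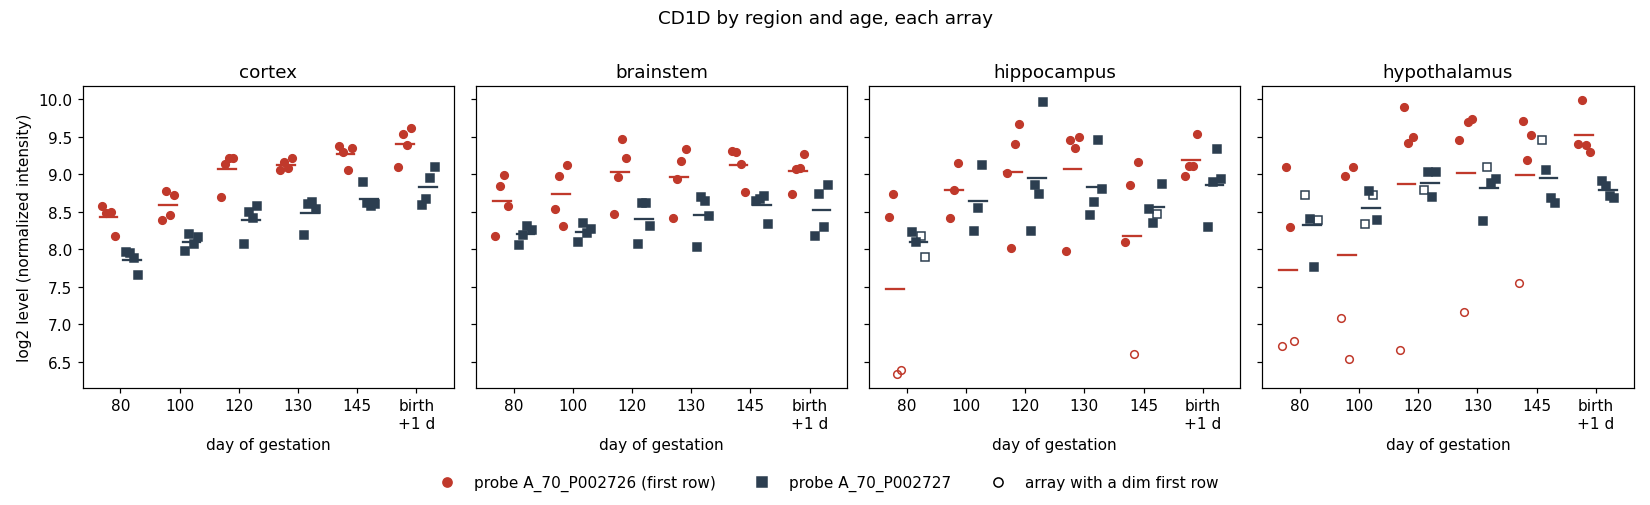
Log2 level of CD1D probes A_70_P002726 and A_70_P002727 on each array (points) by age in the 4 regions, with the group mean as a short line and open points for arrays with a dim first row. In cortex A_70_P002727 went from 7.66 to 7.96 at 80 d to 8.59 to 9.1 in newborns, with no overlap.

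In brainstem the CD1D values were higher at later ages by less than the test could tell from the spread. Probe A_70_P002727 read 8.06, 8.19, 8.31 and 8.26 at 80 d, 8.64, 8.67, 8.71 and 8.33 at 145 d, and 8.18, 8.74, 8.30 and 8.86 in newborns. The arrays at 145 d lay above those at 80 d, while the newborn arrays overlapped them.

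Over both probes the brainstem level of CD1D was 8.43 ± 0.23 at 80 d, 8.48 ± 0.23 at 100 d, 8.72 ± 0.32 at 120 d, 8.71 ± 0.32 at 130 d, 8.85 ± 0.21 at 145 d and 8.78 ± 0.27 in newborns. The F test gave an adjusted p of 0.267, where 41.3% of all brainstem genes passed. The difference between 145 and 80 d was 0.43 (SE 0.18, adjusted p = 0.0699), and it passed without replicate 4 at 145 d (0.53, adjusted p = 0.0384). The newborn level differed from that at 80 d by 0.35 (adjusted p = 0.123) and from that at 145 d by -0.07 (adjusted p = 0.848). In the same comparisons 16.7%, 21.6% and 3.72% of all brainstem genes rose.

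In hippocampus CD1D varied more between arrays of the same age. Probe A_70_P002727 read 8.23, 8.09, 8.17 and 7.90 at 80 d, 8.54, 8.35, 8.47 and 8.87 at 145 d, and 8.29, 8.89, 9.33 and 8.93 in newborns. All these later arrays lay above those at 80 d. Within a slide, newborns exceeded 80 d by 0.13 and by 0.72 with this probe. The other slide with newborn arrays held no array at 80 d, so age and slide are partly confounded in this region. The highest single value of this probe, 9.96, was an array at 120 d, where the other 3 read 8.24, 8.86 and 8.74. Its means between 80 d and birth were 8.64 ± 0.44 at 100 d (n = 3), 8.95 ± 0.73 at 120 d, 8.83 ± 0.44 at 130 d and 8.56 ± 0.22 at 145 d.

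With that probe alone the hippocampus mean was 8.10 ± 0.14 at 80 d and 8.86 ± 0.43 in newborns, a difference of 0.76 (SE 0.31, adjusted p = 0.185). With both probes it was 7.78 ± 0.68 and 9.02 ± 0.28, a difference of 1.24 (SE 0.37, adjusted p = 0.0602), and without the arrays with a dim first row it was 0.65 (adjusted p = 0.671). The difference with both probes reached the threshold without replicate 1 at 80 d (adjusted p = 0.05) or without replicate 2 at 80 d (adjusted p = 0.0402). The F test gave an adjusted p of 0.305 over both probes, 0.701 by A_70_P002727 alone and 1 without the arrays with a dim first row. The difference between 145 and 80 d was 0.58 over both probes (adjusted p = 0.481), 0.46 by A_70_P002727 alone (adjusted p = 0.504) and 0.28 without those arrays (adjusted p = 0.852). Newborns differed from 145 d by 0.65 over both probes (SE 0.37), which did not pass, and by 0.30 with A_70_P002727 alone. In hippocampus 3.02% of all genes passed the F test, 2.08% were higher at 145 d than at 80 d, 2.35% were higher in newborns than at 80 d, and 0.00772% were higher in newborns than at 145 d.

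In hypothalamus the call for CD1D depended on the probe. Probe A_70_P002727 read 8.72, 8.40, 7.77 and 8.39 at 80 d, 9.45, 9.05, 8.68 and 8.62 at 145 d, and 8.91, 8.84, 8.71 and 8.68 in newborns. The ranges at 80 d and later overlapped through 1 array at 80 d, the one at 8.72.

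By this probe the hypothalamus level was 8.32 ± 0.39 at 80 d, 8.56 ± 0.22 at 100 d, 8.89 ± 0.17 at 120 d, 8.82 ± 0.30 at 130 d, 8.95 ± 0.38 at 145 d and 8.79 ± 0.11 in newborns. It was higher at 145 d than at 80 d by 0.63 (SE 0.20, adjusted p = 0.0361), and the newborn difference from 80 d of 0.47 did not pass (adjusted p = 0.111). With both probes the order of the calls was the opposite. The newborn level, 9.15 ± 0.19, then exceeded that at 80 d, 8.02 ± 0.52, by 1.13 (SE 0.37, adjusted p = 0.0379), and the difference of 0.95 at 145 d did not pass (adjusted p = 0.0978). Without the arrays with a dim first row the differences were 0.76 for newborns (adjusted p = 0.0307) and 0.74 for 145 d (adjusted p = 0.0741). The newborn call over both probes was lost when any of 7 of its 8 arrays was left out (adjusted p = 0.0573 to 0.113). The F test gave an adjusted p of 0.138 over both probes, 0.146 by A_70_P002727 alone and 0.123 without those arrays. Newborns differed from 145 d by 0.18 over both probes (SE 0.37, adjusted p = 0.838) and by -0.17 with A_70_P002727 alone. In hypothalamus 15.6% of all genes passed the F test, 5.47% were higher at 145 d, 8.37% were higher in newborns than at 80 d, and 1.52% were higher in newborns than at 145 d.

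The 4 regions were also compared with each other at each age. The methods describe 4 fetuses per age, so arrays of different regions may share an animal, which the labels do not mark and the fit does not model. CD1D passed at 0 of the 6 ages, with adjusted p of 0.345, 0.62, 0.826, 0.868, 0.232 and 0.685 from 80 d to the newborn age, and the unadjusted p was under 0.05 at 0 of them. By probe A_70_P002727 alone the regions differed at 120 d (adjusted p = 0.0424), when its mean was 8.39 ± 0.22 in cortex and 8.41 ± 0.27 in brainstem, below 8.95 ± 0.73 in hippocampus and 8.89 ± 0.17 in hypothalamus. The F tests of whether the change with age differed between regions gave adjusted p of 0.802 for 145 minus 80 d, 0.361 for newborn minus 80 d and 1 for newborn minus 145 d. A difference between regions in the change of CD1D with age was thus not detected.

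CD1B had another course. In cortex it was dim at 80 d, was brighter on most arrays from 100 d on, and varied most at 120 d. Probe A_70_P030071 read 6.97, 6.81, 6.96 and 6.69 at 80 d, 6.63, 7.92, 7.85 and 8.44 at 100 d, 7.93, 6.57, 8.49 and 10.03 at 120 d, 8.95, 8.04, 7.88 and 8.14 at 130 d, 8.15, 7.94, 8.47 and 8.03 at 145 d, and 7.69, 7.59, 8.01 and 7.87 in newborns. All arrays at 130 d, 145 d and after birth lay above all those at 80 d, whereas replicate 1 at 100 d and replicate 2 at 120 d lay below them.

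Probe A_70_P030073, which does not resemble the LOC443442 probe, gave a similar course at a lower level, but the probes differed in detection at 80 d. A_70_P030071 was well above background on 4 of 4 cortex arrays at 80 d, and A_70_P030073 on 0 of 4. Both were so on 3 of 4 at 100 d and at 120 d, and on every cortex array at 130 d, 145 d and after birth. The values of A_70_P030073 were 6.52, 6.40, 6.42 and 6.56 at 80 d, 7.04, 6.39, 7.10 and 8.39 at 120 d, 7.24, 7.11, 7.45 and 7.16 at 145 d, and 7.02, 7.38, 7.20 and 7.03 in newborns. The 80 d group of this probe thus has only a bound, taken as the higher of the probe's signal and the dimmest signal well above background on each array. Against this bound the probe was at least 1.66-fold higher at 130 d, at least 1.63-fold higher at 145 d and at least 1.54-fold higher 1 d after birth, where the measured means on the log2 scale were 7.26, 7.24 and 7.16 against 6.48 at 80 d.

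**Figure D3:**
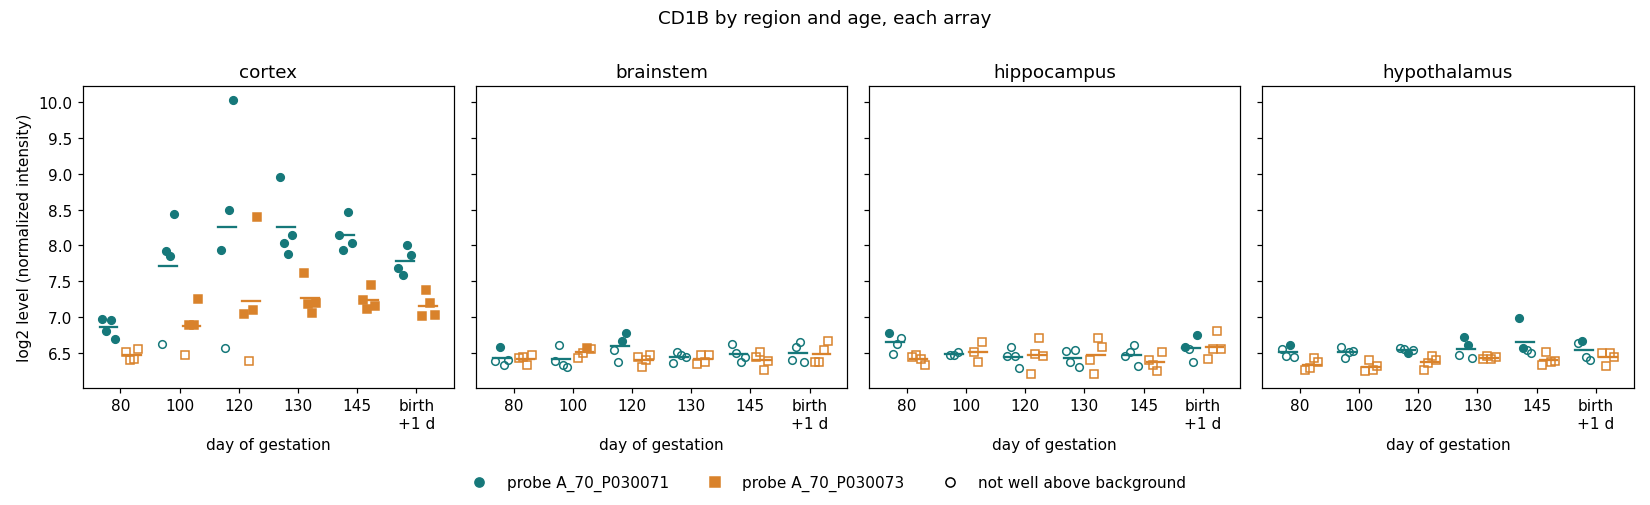
Log2 level of CD1B probes A_70_P030071 and A_70_P030073 on each array (points) by age in the 4 regions, with the group mean as a short line and open points for spots not well above background. Filled points lie mainly in cortex, where A_70_P030071 spans 6.57 to 10.03, against 6.29 to 6.99 in the other regions.

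Averaged over these 2 probes, the cortex level of CD1B was 6.67 ± 0.06 at 80 d, 7.29 ± 0.54 at 100 d, 7.74 ± 1.13 at 120 d, 7.76 ± 0.36 at 130 d, 7.69 ± 0.19 at 145 d and 7.47 ± 0.10 in newborns (log2, n = 4 each). The level at 145 d exceeded that at 80 d by 1.03 (SE 0.35, adjusted p = 0.0231), though without replicate 3 at 145 d the call was lost (0.94, adjusted p = 0.061). The newborn difference from 80 d was 0.81 (SE 0.35, adjusted p = 0.0691) and the change at birth was -0.22 (adjusted p = 0.981). The F test over all ages gave an adjusted p of 0.0838. Without replicate 4 at 120 d, the array at 10.03, the F test passed (adjusted p = 0.00884), as it did without replicate 2 at 120 d, the lowest array of that age (adjusted p = 0.00489). The steps between neighbouring ages were 0.63 (adjusted p = 0.354), 0.45 (adjusted p = 0.543), 0.02 (adjusted p = 0.993) and -0.06 (adjusted p = 0.978), and the second of them was -0.04 without replicate 4 at 120 d.

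The processing narrows changes of a gene this dim. With the processed signal of the scanner software in place of the background correction used here, CD1B was higher by 2.83 at 145 d (adjusted p = 0.008) and by 2.40 in newborns (adjusted p = 0.0207) than at 80 d, on the log2 scale. Within each of the 3 cortex slides the level at 145 d exceeded that at 80 d by 0.84 to 1.15, and the newborn level did so by 0.68 to 0.90.

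In exact two-sided permutation tests of 4 against 4 arrays in cortex, CD1D and CD1B each reached the smallest p such a test allows, 0.0286, for 145 d against 80 d and for newborns against 80 d. This was not particular to cortex. Over both probes, CD1D also reached it for newborns against 80 d in hippocampus (difference 1.24) and hypothalamus (1.13). These differences rest partly on dim first-row spots at 80 d. By A_70_P002727 alone CD1D reached the smallest p in hippocampus (0.76). In hypothalamus this probe did not reach it (0.47), and its values at 80 d and in newborns overlapped. CD1B reached the smallest p in hippocampus for 145 d against 80 d (-0.11) and for newborns against 145 d (0.15), with values near background. Adjusted over the 24 such tests of the 2 genes in the 4 regions, the lowest p was 0.0858.

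Outside the cortex CD1B stayed close to background at every age. Probe A_70_P030071 was between 6.31 and 6.78 in brainstem, between 6.29 and 6.78 in hippocampus and between 6.41 and 6.99 in hypothalamus, and probe A_70_P030073 was between 6.21 and 6.81 over the 3 regions. In brainstem no CD1B probe passed the filter on dim probes, so the gene was not tested there. In hippocampus and hypothalamus only A_70_P030071 passed it, and the F test of age gave adjusted p of 1 and 0.901.

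Between regions CD1B could be compared only as a cortex signal against values near background, and A_70_P030073 entered the fit over all arrays through the cortex alone. The adjusted p of the F test over the 4 regions was 0.742 at 80 d, 0.000697 at 100 d, 5.49e-08 at 120 d, 2.61e-08 at 130 d, 1.02e-07 at 145 d and 5.3e-05 after birth, where 23.7%, 21.8%, 23.5%, 32.3%, 33.3% and 27.5% of all genes passed. With no filter on dim probes it was 0.00139 at 100 d and at most that at the later ages. With the slide as a random block it was at most 0.00202 from 100 d on, although each slide held 1 region. At 1 d after birth the contrasts of cortex with brainstem, hippocampus and hypothalamus had adjusted p of 0.000106, 0.00115 and 0.000215, and their sizes are given as bounds. Of all genes, 11.3%, 4.56% and 5.43% were higher in cortex in these comparisons.

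The bounds give the same order of regions. At 145 d probe A_70_P030071 was at least 2.98-fold higher in cortex than in brainstem and at least 3.12-fold higher than in hippocampus, where no array was well above background. Probe A_70_P030073 was at least 1.60-fold, 1.78-fold and 1.72-fold higher in cortex than in brainstem, hippocampus and hypothalamus at that age. In newborns these bounds were 1.40, 1.48 and 1.62, and that of A_70_P030071 over brainstem was 2.24.

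Whether the change of CD1B with age differed between regions was tested in the fit over all arrays, which A_70_P030073 entered through the cortex alone. A_70_P030071 did not pass the filter in brainstem. The probes were thus kept partly for their cortex signal, so the test does not measure the change outside the cortex. The F test that 145 minus 80 d was equal in the 4 regions had an adjusted p of 0.00711, and 10.8% of all genes passed it. Outside the cortex it rests on values near background, and in brainstem and hippocampus at 145 d 0 arrays were well above background for either probe. With no filter the adjusted p was 0.0135, and with the processed signal the call was lost (adjusted p = 0.0593). For newborn minus 80 d the adjusted p was 0.101, with 12.1% of all genes passing, and for newborn minus 145 d it was 1, with 0.0372% passing.

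The near-identical probe of LOC443442 moved with CD1B. Its cortex means were 6.75 ± 0.07 at 80 d, 7.49 ± 0.75 at 100 d, 7.95 ± 1.27 at 120 d, 7.91 ± 0.46 at 130 d, 7.82 ± 0.18 at 145 d and 7.50 ± 0.15 in newborns, and 0 of the 4 arrays at 80 d were well above background. It was at least 2.1-fold higher at 145 d than at 80 d (adjusted p = 0.0436). It was well above background on 18 of 24 cortex arrays and on 22 of all 95. Over the 24 cortex arrays, deviations from the mean of each age correlated between this probe and A_70_P030071 with r = 0.99 and rho = 0.97 (permutation test, adjusted p = 3.3e-05 and 1e-04). Signal of the 2 genes cannot be told apart by these probes.

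The dissimilar CD1B probe varied with them as well. Between A_70_P030071 and A_70_P030073 the same deviations gave r = 0.93 and rho = 0.73 (permutation test, adjusted p = 3.3e-05 and 3e-04), and r = 0.80 without the 2 farthest arrays. Within the slides r was 0.87 to 0.97. The differences among cortex arrays of the same age, with 6.57 and 10.03 both found at 120 d, were thus seen by 2 probes that share no long run of bases.

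**Figure D4:**
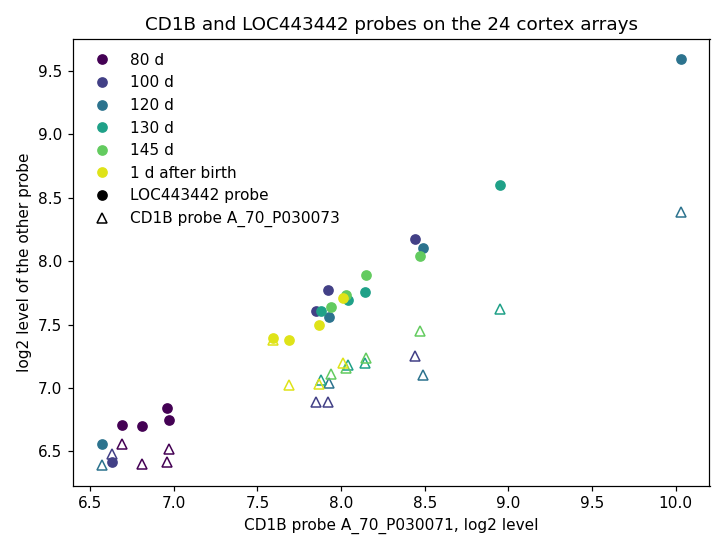
Log2 level of CD1B probe A_70_P030071 (horizontal axis) against that of the other CD1B probe, A_70_P030073, and of the LOC443442 probe (vertical axis) on the 24 cortex arrays. For deviations from the mean of each age, which are not drawn, r was 0.93 and 0.99. The array farthest to the right is replicate 4 at 120 d.

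CD1B and CD1D did not vary together among cortex arrays of the same age, with r = 0.17 and rho = 0.29 (permutation test, adjusted p = 0.40 and 0.22). The 2 CD1D probes correlated in cortex (r = 0.74, rho = 0.61) and in brainstem (r = 0.68, rho = 0.57). In hippocampus their r was 0.33, and 0.46 without the arrays with a dim first row. In hypothalamus it was -0.29 with all arrays and 0.65 without them (n = 17, permutation test, adjusted p = 0.0083). In all 10 such relations were computed and their p-values adjusted together.

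The third CD1 gene name of the array, CD1, has 2 probes that were well above background on 2 and 3 of 95 arrays. Their highest levels were 6.78 and 7.39.

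Genes with the course most like that of each member were found over the 24 means of region and age, among 839 named genes that passed the filter in all 4 regions. For CD1B they were CRHR1, the receptor of corticotropin releasing hormone (r = 0.90, rho = 0.53), V15 (r = 0.84, rho = 0.26) and SST1 (r = 0.83, rho = 0.62). In 3 of the 4 regions the CD1B means were near background, so their order there carries little. For CD1D over both probes they were CNN1, a calponin of smooth muscle (r = 0.84, rho = 0.68), DBP (r = 0.82, rho = 0.76) and TUBA4A, a tubulin (r = 0.79, rho = 0.66). For probe A_70_P002727 alone they were EPAS1, a hypoxia inducible factor (r = 0.85, rho = 0.87), LPL, lipoprotein lipase (r = 0.84, rho = 0.85), and RTP4 (r = 0.82, rho = 0.80). The lists with and without the first-row probe thus had no gene in common. These means share their arrays and the values are a description.

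The partners of CD1 in lipid presentation were counted next. Of 17 listed genes of the light chain and of lipid loading, 7 had a named probe. In newborns 5 of the 7 were higher than at 80 d in cortex, 3 were so in brainstem and 3 in hypothalamus, against 0 in hippocampus, and 0 fell in any region. Their median log2 change was 0.99 in cortex beside -0.03 for all genes, 0.59 in brainstem beside 0.02, 0.25 in hippocampus beside -0.01, and 0.54 in hypothalamus beside -0.02. Of all genes, 20.3% rose and 24.9% fell in cortex, 21.6% and 21.8% in brainstem, 2.35% and 3.14% in hippocampus, and 8.37% and 9.16% in hypothalamus.

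B2M, the light chain itself, had a cortex level of 12.57 ± 0.52 at 80 d, 14.0 ± 0.22 at 145 d and 16.01 ± 1.27 in newborns, and rose by 3.44 between 80 d and the newborn (SE 0.53, adjusted p = 1.5e-05). It also rose in hypothalamus, by 1.52 (adjusted p = 0.023). In brainstem its difference was 0.86 (adjusted p = 0.12) and in hippocampus 2.12 (SE 0.96, adjusted p = 0.25). CTSS, cathepsin S, a protease of antigen presenting cells, rose by 2.56 in cortex (adjusted p = 3.3e-05), 1.16 in brainstem (adjusted p = 0.0033) and 1.22 in hypothalamus (adjusted p = 0.0073).

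PSAP, the precursor of the saposins, rose by 1.05 in cortex (adjusted p = 1.1e-05) and differed by 0.32 in brainstem (adjusted p = 0.09). CTSD, the lysosomal cathepsin D, rose by 0.99 in cortex (adjusted p = 2.7e-07). LIPA, lysosomal acid lipase, rose by 0.87 in cortex (adjusted p = 0.00023) and by 0.54 in hypothalamus (adjusted p = 0.018). In brainstem the other genes that rose were NPC2, a lysosomal sterol carrier, by 0.74 (adjusted p = 0.0047), and HEXA, a subunit of hexosaminidase, by 0.59 (adjusted p = 0.0054).

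**Figure D5:**
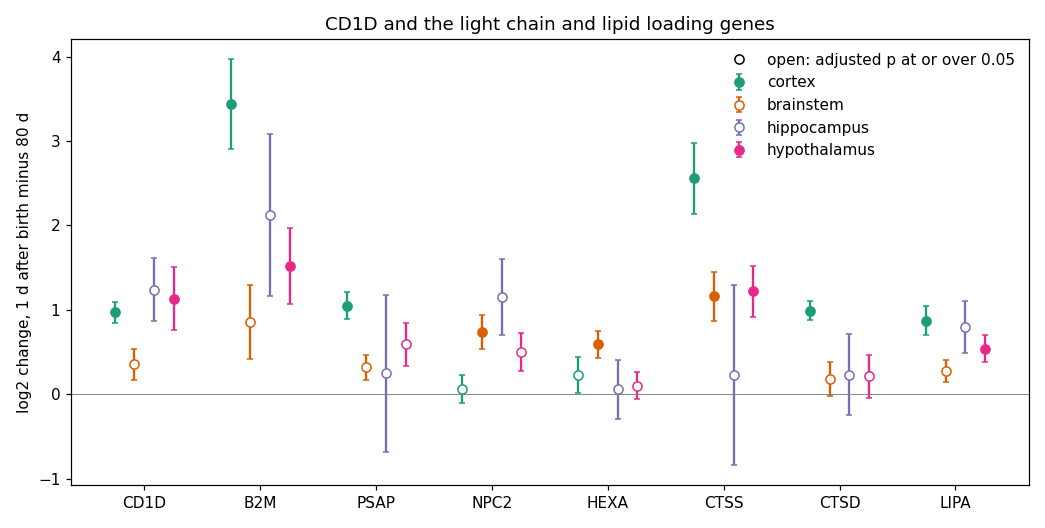
Newborn minus 80 d difference in log2 level for CD1D, its light chain B2M and the lipid loading genes in the 4 regions. Points are limma estimates, bars are standard errors, and open points had an adjusted p at or over 0.05; B2M in cortex was the highest estimate at 3.44.

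Of 13 listed genes of CD1 folding and trafficking only RAB7A, a GTPase of late endosomes, had a named probe. It rose in cortex by 0.65 (adjusted p = 0.0015), and differed by -0.09 in brainstem, -0.18 in hippocampus and 0.25 in hypothalamus, where it did not pass. Of 12 listed genes of peptide antigen presentation 4 had a named probe. Over the same interval 2 of these 4 rose in cortex, 2 in brainstem and 1 in hypothalamus, and in hippocampus 0 passed. None of the 4 fell in any region. The share of all genes that rose was again 20.3% in cortex, 21.6% in brainstem, 8.37% in hypothalamus and 2.35% in hippocampus, and it is the background of the marker counts that follow.

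Markers of cells that can carry CD1 also changed over these ages. In RNA of whole tissue, a change in the number of cells of a type and a change in RNA per cell cannot be told apart. Of 11 myeloid and microglia markers only ITGAM and CD14 had a named probe, and both were higher in newborns than at 80 d in 3 regions, all but the hippocampus, where neither passed and where 2.35% of all genes rose. The log2 of their summed intensity in cortex was 8.01 to 8.27 at 80 d, 8.17 to 8.55 at 145 d and 8.34 to 9.66 in newborns.

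Of 11 T and NKT cell markers 5 had a named probe, and CD4 stayed at background. Of the other 4, CD3D, CD3E and CD5 rose in cortex and brainstem, CD3E rose in hippocampus and CD5 rose in hypothalamus. SLAMF1 passed in no region. Its newborn minus 80 d difference was negative in cortex (-0.07) and hypothalamus (-0.15), and positive in brainstem (0.33) and hippocampus (0.3). The log2 of the summed intensity of the list in cortex was 9.06 to 9.32 at 80 d, 9.28 to 9.51 at 145 d and 9.31 to 10.16 in newborns. CR2, the only B cell marker named on the array of 6 listed, was between 6.40 and 6.56 in cortex at 80 d, between 6.77 and 7.02 at 145 d and between 6.54 and 7.84 in newborns, and rose by 0.60 (adjusted p = 0.0049).

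Dendritic cell and thymocyte markers, the cell types best known for CD1B, had 0 named probes of 7 and 6 listed, and oligodendrocyte markers 0 of 5. GFAP, a marker of astrocytes, was higher in newborns than at 80 d in all 4 regions, by 3.47 in cortex and 3.94 in hypothalamus. AQP4, the other astrocyte marker with a named probe, rose by 1.12 in cortex (adjusted p = 0.019) and fell by 3.05 in hypothalamus (adjusted p = 0.026), and its differences of -0.01 in brainstem and -0.39 in hippocampus did not pass. On the log2 scale, the summed intensity of the blood markers HBB and AHSP in cortex was highest at 120 d, at 13.05 to 15.16 against 11.41 to 11.74 at 80 d. That of the choroid plexus markers TTR and AQP1 also had its highest cortex value at 120 d. It spanned 9.48 to 16.08 at that age, against 9.47 to 13.47 at 80 d. The neuron marker GRIN1 was between 8.50 and 8.84 in cortex at 120 d and between 8.06 and 8.51 at 80 d. The part of these cell types in the CD1 values was not tested.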

How the data were processed

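Samples were grouped by the region and age of their labels. The authors hybridized Cy3-labeled RNA to 60-base sheep arrays, and the deposited scanner files give 2 intensity values per spot, its mean and its local background, not yet normalized. The scanner software in their headers is Feature Extraction 10.1.1.1. Log2 values that the authors normalized themselves were deposited as a table of the series, used here as an alternative.

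Background was corrected with normexp (offset 50), which narrows changes of dim probes, and intensities were quantile normalized over all arrays with limma 3.58.1 in R 4.3.3. Spots marked as outliers were dropped on their array, and control spots were left out. In each region, probes had to exceed the negative controls (77 spots, their 95th percentile times 1.1) on 4 or more arrays. Of the CD1B probes, A_70_P030073 passed the filter in cortex alone, where it was brightest, and A_70_P030071 in every region but brainstem. Probes of a gene were averaged. Ages were fitted together within a region, and regions in one fit over all arrays (lmFit and eBayes), with Benjamini-Hochberg adjustment over all genes at 0.05. The study's time-course package was not used. The fits were tested on simulated data.

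The 2 genes, the lists of related genes and markers and the tests were chosen with earlier results of these data known. The genes named are CD1B, CD1D and other CD1 genes of the array, for each member the 3 most similar courses, and the genes of the fixed lists. From the list of light chain and lipid loading genes 1 gene was taken out after its values were seen and is not reported here. RefSeq accessions named 701 probes, and 13444 of the 15008 probes are known by accession only, so a listed gene without a named probe is not shown to be missing from the array. Alternatives were a normexp offset of 16, processed signals relative to the 75th percentile of the array, the series table, no filter, single probes, quantile normalization within regions, the slide or replicate number as a block, and each array left out in turn. Leaving out the 10 arrays with a dim first row was chosen after seeing the data. The number of arrays limits the precision.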

Additional observations from a re-analysis of the deposited data

Results flagged for a closer look

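In 5 of 46 groups tested 1 array stood apart from the other 3 by Dixon's criterion, which chance meets in about 1 of 20 groups. For CD1D these were replicate 1 of cortex at 120 d, at a log2 level of 8.39 with the other arrays at 8.82 to 8.90, and replicate 1 of cortex at 130 d, at 8.62 with the others at 8.85 to 8.88. In brainstem they were replicate 1 at 130 d, at 8.22 with the others at 8.81 to 8.91, and replicate 4 at 145 d, at 8.54 with the others at 8.92 to 8.98. For CD1B it was replicate 3 of hypothalamus at 100 d, at 6.39 with the others at 6.42, where no probe of the gene was well above background.

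The F test that the change of CD1B from 80 to 145 d was equal in the 4 regions passed (limma, adjusted p = 0.00711). On the log2 scale the cortex changed by 1.03, the brainstem by 0.02, the hippocampus by -0.11 and the hypothalamus by 0.10, as means of the same 2 probes, with values near background outside the cortex. Of these probes A_70_P030073 passed the filter in cortex alone and A_70_P030071 in every region but brainstem, so the test does not measure the change outside the cortex.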

How the results depend on the processing

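The rise of CD1D in cortex from 80 to 145 d and to the newborn stayed past the threshold under every alternative that could be fitted. The F tests of CD1B between regions from 100 d on did so too, but they compare a cortex signal with values near background. A_70_P030073 entered that fit through the cortex alone and A_70_P030071 did not pass the filter in brainstem, so the choice of probes favours such a difference. The calls that moved were these, and the cause was not tested. For CD1B in cortex the newborn difference from 80 d passed with an offset of 16 (1.19), with the processed signal (2.40) and with A_70_P030073 alone (0.68), and the F test passed with an offset of 16 (adjusted p = 0.0498) and with the processed signal (adjusted p = 0.0377). The difference of CD1B between regions in 145 minus 80 d was lost with the processed signal (adjusted p = 0.0593). The step of CD1B from 120 to 130 d turned in sign with the series table (-0.03), no filter (-0.00086), A_70_P030071 alone (-0.0015) and the slide as a block (-0.00022). In hypothalamus the newborn difference of CD1D from 80 d did not pass with the processed signal (1.48), A_70_P002726 alone (1.80) or A_70_P002727 alone (0.47). With A_70_P002727 alone the difference at 145 d passed (0.63), the change at birth turned to -0.17, and the regions differed at 120 d (adjusted p = 0.0424). The cortex step of CD1D from 100 to 120 d passed with the series table (0.37), A_70_P002726 alone (0.48), the slide as a block (0.39) and the replicate block (0.39).

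Replicate numbers were not taken to pair the arrays, since not every pair correlated over 0.1. Deviations of same-numbered arrays of different regions at the same age correlated over 0.1 in 56 of 141 pairs, with a median of 0.05. Between ages of a region the number was 41 of 60 in cortex (median 0.179, other pairs -0.099), 32 of 60 in hypothalamus (0.117, other pairs -0.081), 22 of 60 in brainstem and 23 of 55 in hippocampus. With the replicate block CD1D in brainstem differed between 145 and 80 d by 0.43 (adjusted p = 0.0304).

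With each array left out in turn, CD1B in cortex ranged from 0.94 to 1.08 for 145 minus 80 d, from -0.04 to 0.87 for the step from 100 to 120 d, from -0.41 to 0.51 for 120 to 130 d and from -0.16 to 0.11 for 130 to 145 d, and its F test from 0.00489 to 0.178. CD1D in cortex ranged from 0.33 to 0.50 for 100 to 120 d and from -0.04 to 0.14 for 120 to 130 d. In brainstem it ranged from 0.33 to 0.53 for 145 minus 80 d and from -0.18 to 0.03 for the change at birth. In hippocampus the newborn difference from 80 d ranged from 1.02 to 1.44. In hypothalamus it ranged from 0.99 to 1.38, the difference at 145 d from 0.81 to 1.20, and the F test from 0.0332 to 0.284.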
